A study of Mus musculus with 12 samples.

Results

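The 35 genes described here carry proteins through the endoplasmic reticulum (ER) of a secreting cell: they fold them, watch over the folding, bring them into the ER and ship them on to the Golgi. They are a list of gene names, grouped by role: 8 ER chaperones and co-chaperones, 7 disulphide isomerases and lectin chaperones, 8 regulators of the unfolded protein response, 5 genes of translocation and signal peptide cleavage, and 7 genes of ER export and retrieval. All 35 were measured, among 18194 genes in all. Each gene was represented by 1 probe set, the one with the highest mean over the arrays among those annotated to that gene symbol alone. For 22 of the 35 there were several probe sets.

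RNA came from fibroblasts of mouse back skin, sorted as live GFP-positive cells from 7-week-old males that all carried a PDGFRα-H2B-eGFP allele, a nuclear reporter for the fibroblast receptor PDGFRα. The 3 conditions had 4 Affymetrix arrays each: normal skin (wild-type mice), inflamed skin (InvEE mice) and skin around papillomas (InvEE mice as well), called tumour-associated. As background, InvEE mice express an activated MEK1 kinase from the involucrin promoter, in the differentiating layers of the epidermis and not in the fibroblasts themselves. All groups went through the same cold trypsin step, removal of the epidermis between the follicles, enzymatic digestion of the dermis and sort, and the RNA was amplified once. Nothing in the labels ties the 4 arrays of a group to separate mice, so the p-values reflect only the spread among these samples, and that spread may be technical. Array numbers are the replicate numbers of the labels, which do not say what the numbers stand for.

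The ER is where collagen and other secreted proteins enter the secretory route: a ribosome docks at the Sec61 channel, the growing chain is pushed into the lumen, its signal peptide is cut off, and chaperones, disulphide isomerases and the lectins calnexin and calreticulin fold it. When unfolded chains pile up, the sensors Ire1 (Ern1), Perk (Eif2ak3) and Atf6 start the unfolded protein response, which slows translation and raises chaperones and degradation factors through the transcription factors Xbp1, Atf4 and cleaved Atf6. Folded cargo leaves in COPII-coated vesicles, with special adaptors for bulky procollagen, and escaped chaperones are fetched back by KDEL receptors. Dermal fibroblasts are known as heavy collagen secretors and use this whole route. Arrays measure transcript amounts, and neither the splicing of Xbp1 nor the cleavage of Atf6, Creb3l1 or Creb3l2 was measured.

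Several members carry a shared control sequence, the ER stress response element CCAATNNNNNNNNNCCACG, just before their start site, and the elements are shown because they are the best-known feature that ties these genes together. RefSeq promoters (GRCm38.p6, 250 bases before to 50 bases from each annotated start, 300 bases in all) were searched for 29 of the 35 members, without Atf6, Creb3l1, Hyou1, Kdelr2, Manf and Sec61a1. Both strands were searched, and each line gives an element 5′ to 3′ along its own strand, with the letters that the motif fixes in capitals:
Hspa5, chr2:34772025-34772043, plus strand: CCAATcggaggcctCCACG
Hsp90b1, chr10:86705638-86705656, minus strand: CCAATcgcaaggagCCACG
Hsp90b1, chr10:86705533-86705551, plus strand: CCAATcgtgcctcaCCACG
Dnajc3, chr14:118937827-118937845, plus strand: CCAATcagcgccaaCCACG
Pdia6, chr12:17266491-17266509, plus strand: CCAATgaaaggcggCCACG
Calr, chr8:84847075-84847093, plus strand: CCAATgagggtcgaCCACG
Canx, chr11:50325800-50325818, minus strand: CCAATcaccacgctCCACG
Creld2, chr15:88819520-88819538, minus strand: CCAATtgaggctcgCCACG
These 7 members are 24.1% of the 29, where the same letters occurred in 37 of 27025 genes with a promoter, or 0.137%. The other motifs searched were the ER stress response element II (ATTGG, any 1 base, then CCACG, in Dnajb11 and Herpud1, and in 0.044% of all genes), the unfolded protein response element (TGACGTGG, in Kdelr3, Sec23a and Sec24d, and in 0.714%) and an amino acid response element (TTGCATCA, in Herpud1, and in 1.03%). The motifs do not overlap each other in these windows. Of the 29 members, 12 held at least 1 of these motifs. A match is a description of the letters, not evidence of binding, and no match says only that these letters are not in this window.

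For the chaperone Hspa5, the usual reference gene of the response, and for Herpud1 and Creb3l2, the members with the largest lower and the largest higher difference in tumour-associated skin, the 250 bases before the start site are printed along the gene's strand, with the matches in capitals:
Hspa5, chr2:34771840-34772089, plus strand: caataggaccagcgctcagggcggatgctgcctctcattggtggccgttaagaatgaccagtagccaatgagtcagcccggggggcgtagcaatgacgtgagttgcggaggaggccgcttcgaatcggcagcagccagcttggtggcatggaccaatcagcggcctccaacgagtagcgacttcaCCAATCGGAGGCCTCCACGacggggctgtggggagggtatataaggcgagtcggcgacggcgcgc
Herpud1, chr8:94386179-94386428, plus strand: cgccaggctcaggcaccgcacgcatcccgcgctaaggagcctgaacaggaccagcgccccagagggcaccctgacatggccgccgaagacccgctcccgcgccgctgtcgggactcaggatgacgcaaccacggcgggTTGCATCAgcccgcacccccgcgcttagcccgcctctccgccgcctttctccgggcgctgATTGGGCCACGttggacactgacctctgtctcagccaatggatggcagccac
Creb3l2, chr6:37442149-37442398, minus strand: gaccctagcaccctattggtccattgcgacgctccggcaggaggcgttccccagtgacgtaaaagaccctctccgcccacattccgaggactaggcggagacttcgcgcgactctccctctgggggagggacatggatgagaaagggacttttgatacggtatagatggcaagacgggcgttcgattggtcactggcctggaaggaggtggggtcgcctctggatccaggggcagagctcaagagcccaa
In Hspa5 the capitals mark the ER stress response element. In Herpud1 the first capitals mark the amino acid response element and the second the ER stress response element II. Creb3l2 held none of the 4 motifs.

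All values are log2 values after quantile normalization of the 12 arrays, and a difference of 1 on this scale is 2-fold. Levels are compared between groups for 1 probe set, never between genes. As a check of the sort, Pdgfra read 9.26 to 10.34 in normal, 10.35 to 10.88 in inflamed and 10.43 to 11.26 in tumour-associated arrays, and the type I collagen gene Col1a1 lay between 14.04 and 14.55 in all 12. Pdgfra was higher in tumour-associated than in normal arrays by 0.93 ± 0.25 (SE; limma adjusted p = 0.0350), the only 1 of 8 fibroblast markers called there, with 7 of the 8 differences positive and Dcn lower in every tumour-associated array (-0.43, adjusted p = 0.0770). In inflamed against normal skin none of the 8 passed and 7 differences were negative, with Lum and Pdgfrb lower in every inflamed array and Pdgfra alone positive (0.68). Against inflamed skin 7 differences were positive in tumour-associated arrays, and Pdgfrb rose by 0.55 (adjusted p = 0.0210). Over all genes 54.8%, 39.4% and 60.7% of differences were positive in these comparisons, in that order. Some arrays stood apart. Tumour-associated array 4 was the lowest of its group in 19 of the 35 members, where it was the lowest in 27.2% of all genes. It was also the highest in 8 members and in 45.1% of all genes. Normal array 4 was the lowest of its group in 15 members, against 28.1% of all genes, and the highest in 12, against 41.3%. Inflamed array 3 was the highest in 19 members, against 33.7% of all genes, and the lowest in 3, against 30.6%. The all-gene shares include dim genes (mean under 6.73), while all 35 members had higher means. Whether members differed from genes of like level was not tested. Deposited quartiles lay closest together in tumour-associated array 4 (5.505 and 7.879) and normal array 4 (5.429 and 7.978). The poly-A spike controls averaged 8.12 ± 0.35 (SD, n = 4) in inflamed arrays, 10.5 ± 1.26 in normal and 11.0 ± 1.14 in tumour-associated arrays, with no overlap between inflamed and the others (exact two-sided permutation p = 0.0286 for each, the smallest that 4 against 4 allow; 0.0686 after adjustment over 12 tests). The 3′ minus 5′ difference of the Gapdh control probe sets, which grows as RNA breaks down, was 0.96 higher in tumour-associated than in normal arrays, with the same exact permutation p of 0.0286 and the same adjusted value. The same exact permutation p and adjusted value held for the 3′ minus 5′ difference of the actin control probe sets, 0.35 higher in tumour-associated than in normal arrays, and for the hybridisation controls, which differed by -0.45 between inflamed and normal arrays. Tumour-associated array 4 and inflamed array 3, which stood apart above, also had the highest Gapdh differences, 3.76 and 3.37. An alternative fit took the spike controls as a covariate. In the comparisons with inflamed skin it cannot tell spike level from group, since the spike levels do not overlap. Otherwise the part of these technical measures in the results was not tested.

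Of the 35 genes of the ER and secretory route 31 passed the test in no comparison. Of the 4 that passed, 3 came from the list of 8 stress response regulators. That list includes Herpud1, which encodes a degradation protein and is a read-out of the response. Between tumour-associated and normal skin 37.5% of the 8 were called, where 9.63% of all genes were. In fibroblasts of inflamed skin no member passed the test against normal skin. In tumour-associated skin the transcription factor gene Creb3l2 and the lectin chaperone gene Canx rose against normal skin, and the stress genes Herpud1 and Ddit3 fell. Against inflamed skin Creb3l2 alone passed, and it rose. Tests were limma's moderated linear model over all 12 arrays, with Benjamini-Hochberg adjustment over all 18194 genes and a threshold of 0.05. The comparisons share arrays and are given side by side.

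**Figure D1:**
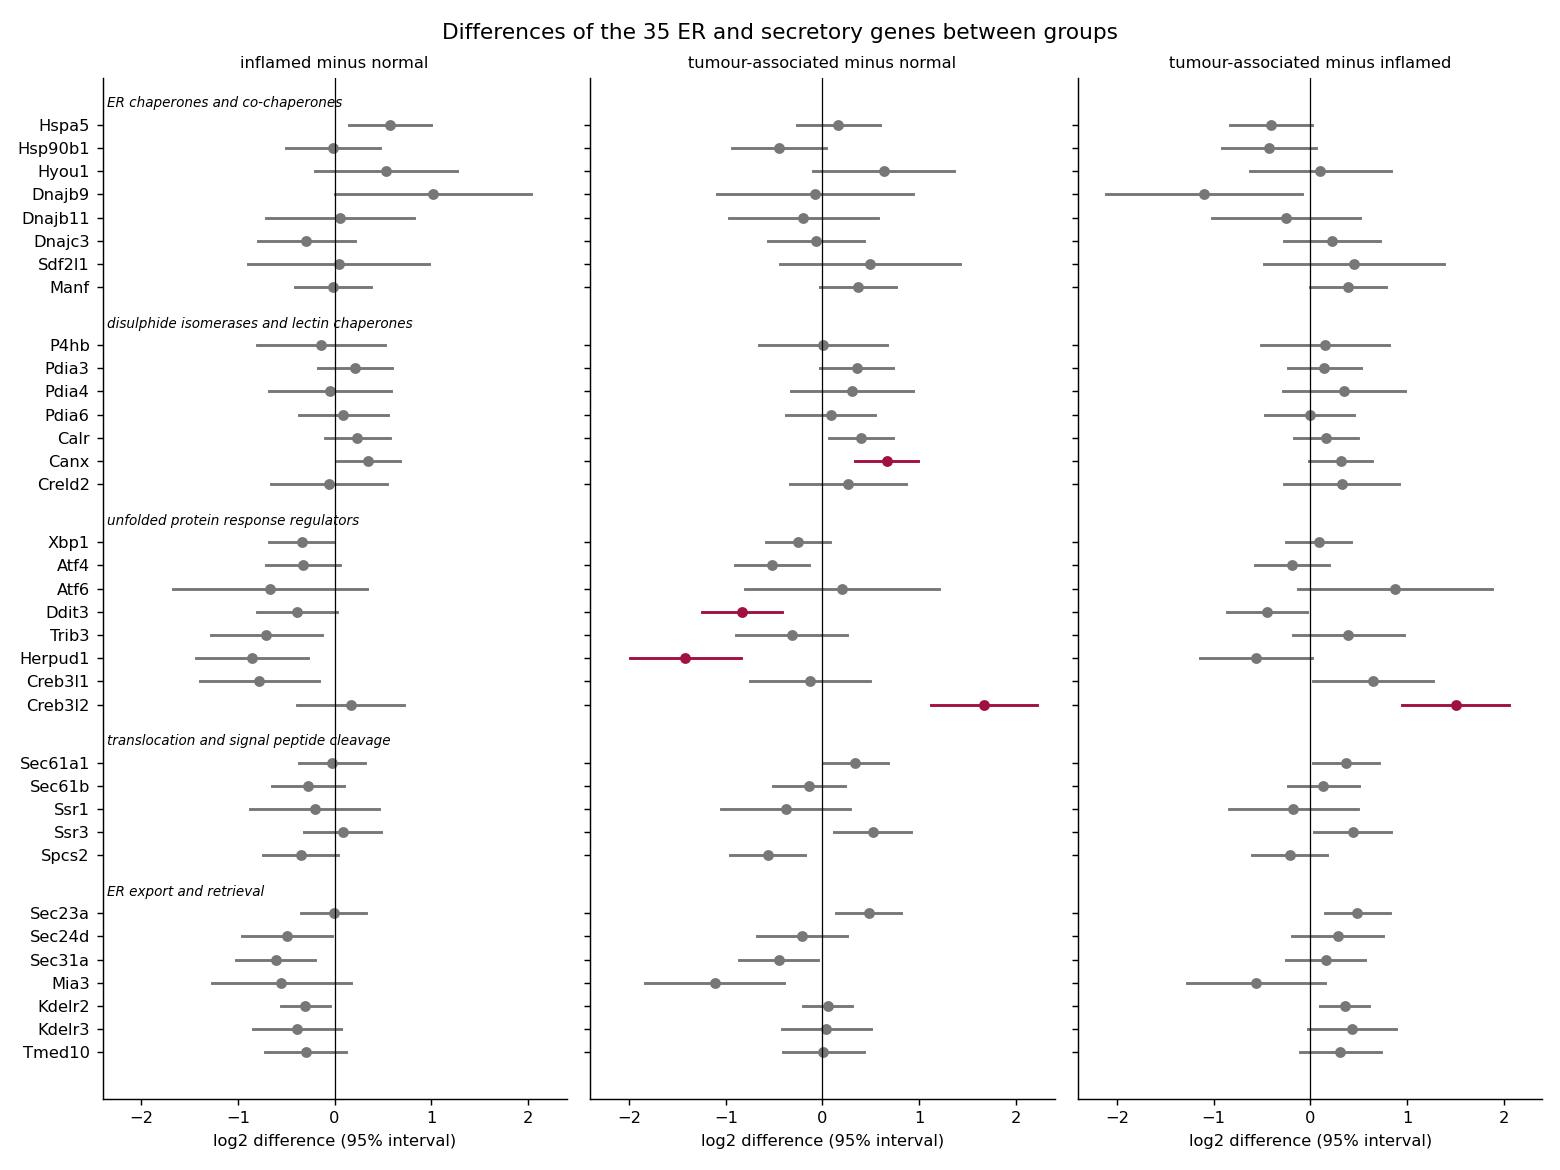
Log2 difference of each of the 35 genes (points, with 95% intervals as lines) in the 3 comparisons, sorted by role; red marks an adjusted p under 0.05. The 4 called genes of the tumour-associated against normal panel are Creb3l2 (1.67) and Canx (0.66) to the right of 0 and Herpud1 (-1.42) and Ddit3 (-0.83) to the left, and no gene is red in the inflamed against normal panel.

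Between inflamed and normal skin 0 of 35 members passed, either higher, where 0.258% of all genes did, or lower, where 0.275% did. At an unadjusted p under 0.05 there were 10 members, or 28.6%, against 15.6% of all genes. The 97 calls over all genes fell to 0 without normal array 1, and likewise without either of inflamed arrays 1 and 2, and rose to 251 without tumour-associated array 4, while the members stayed at 0. The median member difference was -0.14, and that of all genes -0.09. With dim genes left out (mean under 6.73), which kept all 35 members, the median over genes was -0.03. The 4 values of each group did not overlap in 7 members, all of them lower in inflamed skin (Dnajc3, Ddit3, Trib3, Herpud1, Creb3l1, Sec31a and Kdelr2), where 15.3% of all genes did not overlap. For 27 of the 35 members the 95% interval of the difference lay within 1 log2 unit of 0, so differences larger than 2-fold lie outside these intervals, while the other 8 allow more.

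Between tumour-associated and normal skin 2 members rose (5.71%), where 4.85% of all genes did, and 2 fell (5.71%), where 4.78% did. The members' shares called are thus near those of all genes. At an unadjusted p under 0.05 there were 12 members, or 34.3%, against 22.4% of all genes. The median member difference was 0.01, beside 0.04 over all genes and -0.02 with dim genes left out. The groups did not overlap in 11 members, or 31.4%, against 13.8% of all genes: Manf, Calr, Canx, Creb3l2, Sec61a1, Ssr3 and Sec23a were higher in every tumour-associated array, and Ddit3, Herpud1, Spcs2 and Mia3 lower. The same 4 members passed when normal array 4 and tumour-associated array 4 were left out, a choice made after seeing the arrays, with differences of 1.45 for Creb3l2, 0.57 for Canx, -0.75 for Ddit3 and -1.72 for Herpud1.

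Between tumour-associated and inflamed skin 1 member rose (2.86%), where 3.67% of all genes did, and 0 fell, where 3.04% did. At an unadjusted p under 0.05 there were 8 members, or 22.9%, against 26.5% of all genes. The count of members called was 2 without normal array 4 or without tumour-associated array 4, and 3 without inflamed array 3. The median member difference was 0.16, beside 0.12 over all genes and 0.0035 with dim genes left out. The groups did not overlap in 6 members, with Canx, Creb3l2, Sec23a and Kdelr2 higher and Dnajb9 and Ddit3 lower in every tumour-associated array, where 21.1% of all genes did not overlap. This comparison depends on the scale. When each array was shifted by its mean over ribosomal protein genes, the median of all genes moved from 0.12 to 0.58, and 6483 genes were called higher and 358 lower, beside 668 and 553 without the shift. Under that shift 16 members were called, all higher. Between tumour-associated and normal skin the same shift moved the median of all genes from 0.04 to 0.30, with 1381 genes higher and 463 lower, and between inflamed and normal skin from -0.09 to -0.29, with 26 higher and 84 lower beside 47 and 50.

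Among the 8 regulators of the unfolded protein response, Creb3l2 showed the largest difference of all 35 members. Creb3l2 (BBF2H7) is an ER-anchored bZIP transcription factor that is cut free from the membrane and is known for driving COPII genes in collagen-secreting cartilage cells. It read 9.76, 9.90, 9.46 and 8.59 in normal arrays, 9.33, 9.79, 9.52 and 9.74 in inflamed arrays, and 11.25, 10.97, 11.25 and 10.91 in tumour-associated arrays. All 4 tumour-associated values lay above all 8 others, while the normal and inflamed values overlapped. Creb3l2 rose in tumour-associated skin by 1.67 ± 0.25 against normal (SE; 3.18-fold, adjusted p = 0.0015) and by 1.50 ± 0.25 against inflamed skin (adjusted p = 0.0045), and it differed by 0.17 ± 0.25 between inflamed and normal skin (adjusted p = 0.757). Both calls held under all 22 alternatives tried. Its close relative Creb3l1 (OASIS), which serves bone and other matrix-forming cells, differed by -0.78 ± 0.28 in inflamed (adjusted p = 0.226) and by -0.13 ± 0.28 in tumour-associated against normal skin (adjusted p = 0.848). Creb3l1 read 12.20, 12.20, 12.25 and 12.72 in normal arrays, 11.10, 10.99, 12.15 and 12.04 in inflamed and 12.07, 12.24, 11.86 and 12.68 in tumour-associated arrays. Every inflamed value was below every normal one, and 2 of the 4 inflamed arrays lay about 1 log2 unit below the other two.

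Herpud1 fell most among the members. It encodes a membrane protein of ER-associated degradation and is a common read-out of ER stress. Normal arrays read 10.55, 10.51, 10.29 and 10.28, inflamed arrays 9.49, 9.36, 9.38 and 9.98, and tumour-associated arrays 8.35, 8.74, 9.10 and 9.79. The normal values were all above the others, and the inflamed and tumour-associated values overlapped. In tumour-associated against normal skin Herpud1 fell by 1.42 ± 0.27 (SE, adjusted p = 0.0056), a call kept under all 22 alternatives. The difference between inflamed and normal skin was -0.86 ± 0.27 and did not pass (adjusted p = 0.164).

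Ddit3 (CHOP), the transcription factor that links lasting ER stress to cell death, read 9.99, 10.36, 9.65 and 9.74 in normal arrays. Its inflamed values were 9.60, 9.39, 9.57 and 9.64, and its tumour-associated values 9.15, 9.31, 9.28 and 8.67. With the probe set used, the groups stood in the order normal, inflamed, tumour-associated with no overlap between any pair of groups. The other Ddit3 probe set, with a mean of 7.34, went the other way between inflamed and normal skin (0.35) and did not pass. The order of the groups thus holds for the probe set used only. In tumour-associated against normal skin Ddit3 fell by 0.83 ± 0.19 (SE, adjusted p = 0.0162). The call was lost with the shift by ribosomal protein genes (-0.57, adjusted p = 0.125) and with a fit of only the 8 arrays compared (adjusted p = 0.0634). The neighbouring steps did not pass: -0.38 ± 0.19 from normal to inflamed (adjusted p = 0.350) and -0.45 ± 0.19 from inflamed to tumour-associated skin (adjusted p = 0.159).

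The other 4 regulators passed in no comparison. Atf4, the factor translated more when Perk slows protein synthesis and an activator of Ddit3, read 11.45, 11.54, 11.24 and 11.75 in normal and 11.24, 11.11, 10.78 and 10.78 in tumour-associated arrays. The lowest normal and the highest tumour-associated value met, and the difference was -0.52 ± 0.18 (SE, adjusted p = 0.0914). Xbp1, the factor made active by Ire1 splicing, differed by -0.34 ± 0.15 in inflamed (adjusted p = 0.313) and by -0.25 ± 0.15 in tumour-associated against normal skin (adjusted p = 0.375). Atf6, the cleaved sensor, was the most scattered regulator, with tumour-associated arrays at 8.18, 9.10, 9.76 and 10.66 and normal arrays at 9.07, 9.06, 8.57 and 10.17. Trib3, a pseudokinase induced by Atf4 and Ddit3, was dim in the inflamed group, with a mean below 6.73, the level under which the means of 40% of all genes lay. It differed by -0.71 ± 0.26 between inflamed and normal skin (adjusted p = 0.234). Of the 8 regulators 7 had a negative difference in inflamed and 6 in tumour-associated against normal skin. Over all genes 39.4% of differences were positive in inflamed and 54.8% in tumour-associated against normal skin.

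**Figure D2:**
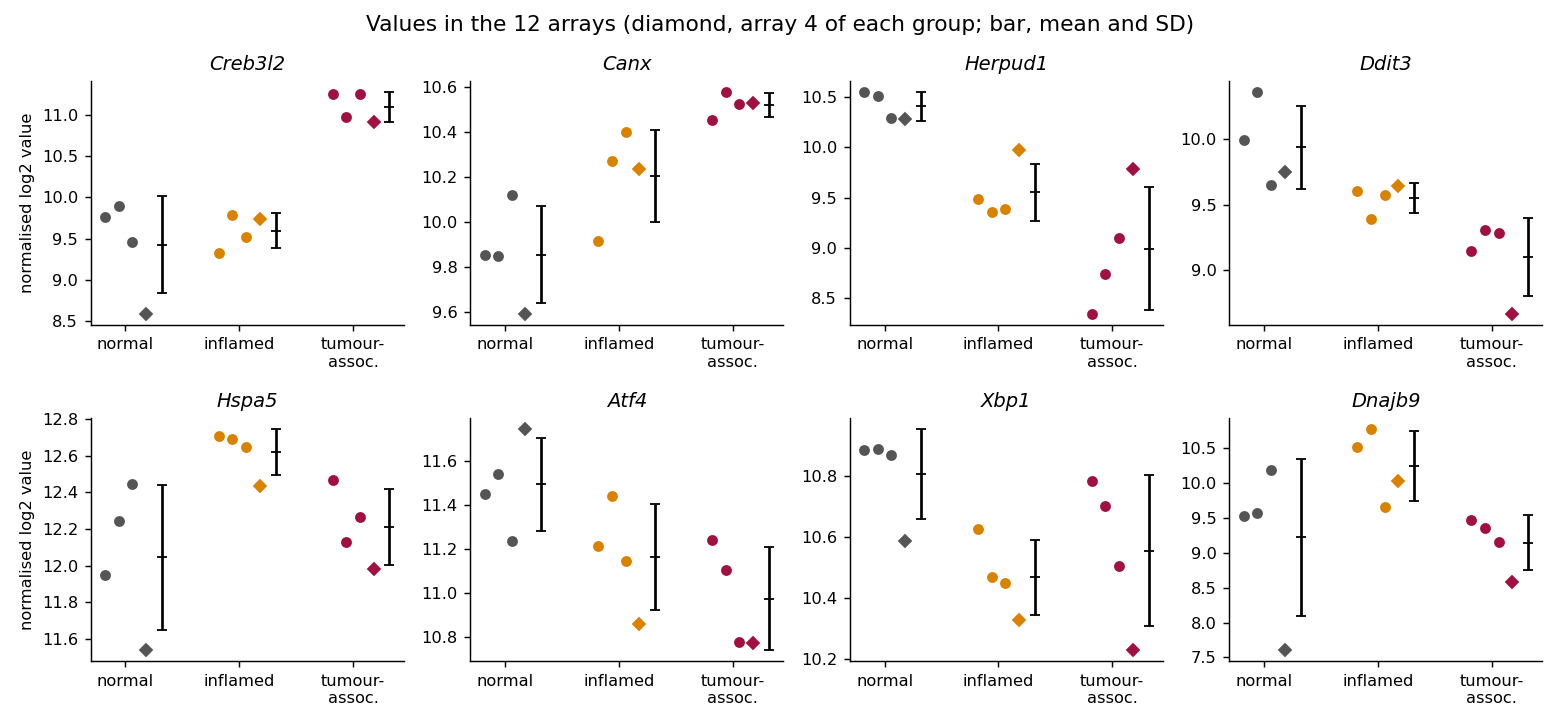
Normalised log2 value in each of the 12 arrays (points; diamonds are array 4 of each group; bars are the group mean and SD, n = 4) for 8 members, with a separate vertical scale in each panel that does not start at 0. In the Creb3l2 panel the tumour-associated arrays lie between 10.91 and 11.25, above all others, and in the Herpud1 panel the normal arrays lie between 10.28 and 10.55, above all others.

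The 7 disulphide isomerases and lectin chaperones all had a positive difference between tumour-associated and normal skin, from 0.00 for P4hb to 0.66 for Canx, with a median of 0.30, and Canx alone passed. Of all genes 54.8% had a positive difference in this comparison. Canx is calnexin, the membrane lectin that holds newly made glycoproteins until they are folded. It read 9.86, 9.85, 10.12 and 9.59 in normal arrays, 9.92, 10.27, 10.40 and 10.23 in inflamed arrays and 10.45, 10.58, 10.52 and 10.53 in tumour-associated arrays. The tumour-associated values were above all others and the closest together. Canx rose by 0.66 ± 0.15 against normal skin (SE; 1.58-fold, adjusted p = 0.0156), and its difference between inflamed and normal skin was 0.35 ± 0.15 (adjusted p = 0.290). The probe set used can match more than 1 transcript by its design. With the mean of all Canx probe sets (0.20, adjusted p = 0.696) or without probe sets of that kind (0.51, adjusted p = 0.237) the call was lost. The mean of all Canx probe sets includes a dim one, with a mean of 6.64 over the arrays.

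Calr, calreticulin, the soluble partner of calnexin, read 10.97, 11.06, 11.20 and 11.42 in normal and 11.62, 11.42, 11.61 and 11.59 in tumour-associated arrays. Its highest normal and lowest tumour-associated value nearly met, and the difference of 0.40 ± 0.15 did not pass (SE, adjusted p = 0.137). Pdia3 (ERp57), the isomerase that works with both lectins, differed by 0.35 ± 0.17 (adjusted p = 0.257). P4hb, protein disulphide isomerase and the beta subunit of collagen prolyl 4-hydroxylase, read 11.26, 11.62, 11.72 and 11.02 in normal arrays, and 11.81, 11.71, 11.68 and 10.43 in tumour-associated arrays, with array 4 lowest in both groups. Pdia4, Pdia6 and the stress-induced protein gene Creld2 differed by 0.30, 0.08 and 0.27 between tumour-associated and normal skin, with adjusted p from 0.606 to 0.874. In inflamed against normal skin 4 of these 7 genes had a positive difference, where 39.4% of all genes did. None passed, with 1 of 7, Canx, at an unadjusted p under 0.05, beside 15.6% of all genes.

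None of the 8 chaperones and co-chaperones passed in any of the 3 comparisons, and 2, 0 and 1 of them had an unadjusted p under 0.05, first for inflamed and then for tumour-associated against normal skin, and last between the diseased groups, where 15.6%, 22.4% and 26.5% of all genes did. Hspa5 (BiP), the central Hsp70 of the ER lumen, read 11.95, 12.24, 12.45 and 11.54 in normal arrays, 12.71, 12.69, 12.64 and 12.43 in inflamed arrays and 12.47, 12.13, 12.27 and 11.98 in tumour-associated arrays. The inflamed values lay at the top, with an overlap of 1 value with either other group. Hspa5 differed by 0.57 ± 0.19 between inflamed and normal skin (SE, adjusted p = 0.200) and by 0.17 ± 0.19 between tumour-associated and normal skin (adjusted p = 0.689). Dnajb9 (ERdj4), a BiP co-chaperone that serves degradation, read 9.52, 9.57, 10.18 and 7.60 in normal, 10.51, 10.77, 9.65 and 10.02 in inflamed and 9.47, 9.36, 9.15 and 8.58 in tumour-associated arrays. Every inflamed value was above every tumour-associated one, and normal array 4 was far below its group. The difference of tumour-associated from inflamed skin was -1.10 ± 0.47 (adjusted p = 0.160), and without normal array 4, whose spread enters the shared variance, it was called (adjusted p = 0.0351).

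Hyou1, the large Hsp70 relative that exchanges nucleotide on BiP, differed by 0.53 ± 0.34 in inflamed and by 0.63 ± 0.34 in tumour-associated against normal skin (SE, adjusted p = 0.454 and 0.301). Hsp90b1 (GRP94), the Hsp90 of the ER, had its lowest value by far in tumour-associated array 4, at 10.46, and differed by -0.45 ± 0.22 between tumour-associated and normal skin (adjusted p = 0.271). Its other probe set, of nearly the same mean level, differed by -0.06 (limma adjusted p = 0.925 over all probe sets). Manf, a stress-induced BiP-binding factor, was higher in every tumour-associated array (10.32, 10.37, 10.87 and 10.55) than in every normal array (10.26, 9.96, 10.28 and 10.13). The Manf difference of 0.37 ± 0.18 did not pass (adjusted p = 0.253). Dnajb11 (ERdj3), Dnajc3 (p58IPK) and Sdf2l1, co-chaperones of BiP, differed by -0.20, -0.07 and 0.49 between tumour-associated and normal skin, and in each of them tumour-associated array 4 was the lowest of its group.

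Of the 5 genes of translocation and signal peptide cleavage none passed in any of the 3 comparisons, and 0, 3 and 2 of them had an unadjusted p under 0.05 in the same order, beside 15.6%, 22.4% and 26.5% of all genes. Ssr3, a subunit of the translocon-associated protein complex that helps chains into the Sec61 channel, read 11.71, 11.81, 11.78 and 11.98 in normal and 12.51, 12.43, 12.08 and 12.35 in tumour-associated arrays. The tumour-associated values were all higher, by 0.52 ± 0.18 on average (SE, adjusted p = 0.105). Sec61a1, the pore of the channel, lay between 12.89 and 13.11 in normal and between 13.25 and 13.39 in tumour-associated arrays and differed by 0.34 ± 0.16 (adjusted p = 0.218). Spcs2, a subunit of the signal peptidase, lay lower in every tumour-associated array (8.90, 9.21, 9.32 and 8.55) than in every normal array (9.62, 9.51, 9.75 and 9.36). The Spcs2 difference was -0.57 ± 0.18 (adjusted p = 0.0693). Its other probe set showed no fall, at 0.02 (limma adjusted p = 0.968 over all probe sets). Sec61b, the small channel subunit, and Ssr1, another subunit of the translocon-associated complex, differed by -0.14 and -0.38, and Ssr1 had its lowest value in tumour-associated array 4, at 9.78.

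The 7 genes of ER export and retrieval had a negative difference in inflamed against normal skin in 7 of 7, from -0.61 for Sec31a to -0.01 for Sec23a, and none passed. Of all genes 39.4% had a positive difference in this comparison. An unadjusted p under 0.05 was found for 3 of the 7, and for 15.6% of all genes. Sec31a, the outer COPII coat, read 11.11, 11.22, 10.92 and 11.39 in normal and 10.64, 10.27, 10.45 and 10.85 in inflamed arrays, with no overlap (-0.61 ± 0.19, SE, adjusted p = 0.162). Kdelr2, a KDEL receptor that returns chaperones from the Golgi, read 12.99, 12.95, 13.10 and 12.99 in normal, 12.69, 12.61, 12.72 and 12.81 in inflamed and 13.12, 12.97, 13.02 and 13.13 in tumour-associated arrays. The inflamed values were below all others. Inflamed minus normal was -0.30 ± 0.12 (adjusted p = 0.246) and tumour-associated minus inflamed 0.36 ± 0.12 (adjusted p = 0.0892). Kdelr3, its relative, and Tmed10, a p24 cargo receptor, differed by -0.39 and -0.30 between inflamed and normal skin.

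In tumour-associated skin the export genes went different ways and none passed, with 3 of 7 at an unadjusted p under 0.05 against normal skin, where 22.4% of all genes were, and 2 against inflamed skin, where 26.5% were. Sec23a, the inner COPII coat protein whose loss disturbs collagen secretion, read 10.16, 10.29, 10.55 and 10.04 in normal, 10.06, 10.09, 10.48 and 10.36 in inflamed and 10.86, 10.66, 10.66 and 10.76 in tumour-associated arrays. The tumour-associated values were above all others, by 0.48 ± 0.15 against normal (SE, adjusted p = 0.0755) and by 0.49 ± 0.15 against inflamed skin (adjusted p = 0.0812). Sec24d, the cargo adaptor that pairs with Sec23a for procollagen, differed by -0.21 ± 0.22 between tumour-associated and normal skin (adjusted p = 0.635). Mia3 (TANGO1), the ER exit site receptor for bulky collagens, read 10.79, 11.04, 10.83 and 11.14 in normal arrays and 9.90, 10.37, 10.35 and 8.71 in tumour-associated arrays. All 4 tumour-associated values were lower, and the Mia3 difference of -1.11 ± 0.33 just missed the threshold (adjusted p = 0.0545). The other Mia3 probe sets showed smaller differences of -0.66, -0.26 and -0.15 (limma adjusted p = 0.118, 0.399 and 0.807 over all probe sets).

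**Figure D3:**
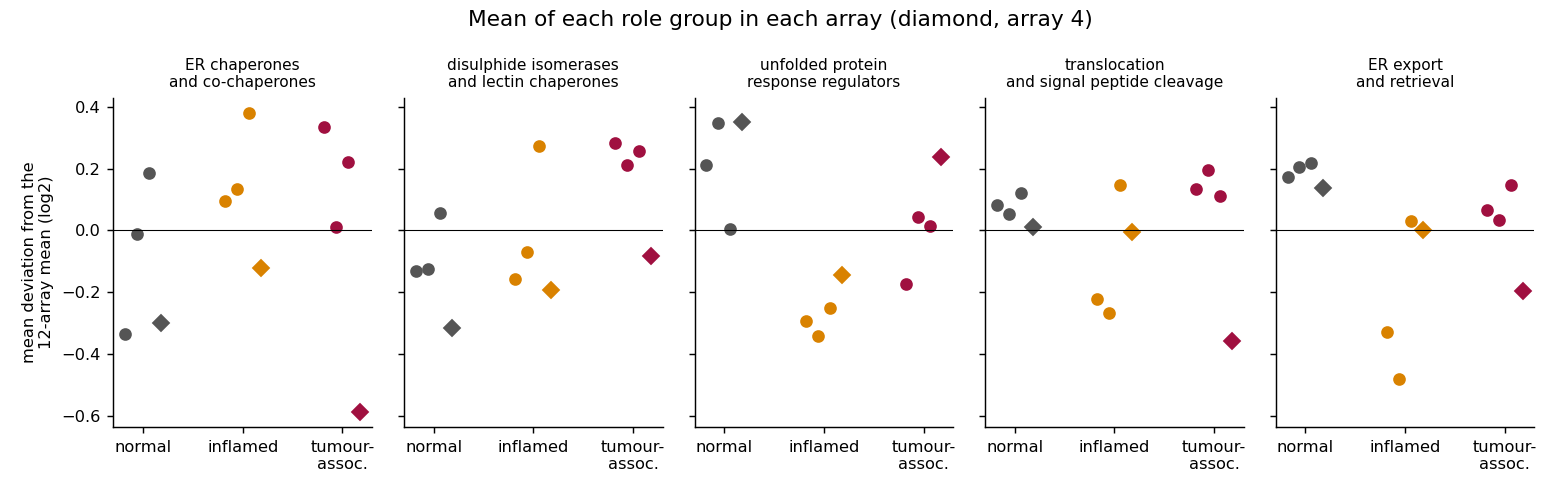
Mean deviation from the 12-array mean (log2) over the genes of each role group in each array (points; diamonds are array 4 of each group). The 4 inflamed arrays average between -0.34 and -0.14 over the 8 stress response regulators and the 4 normal arrays between 0.01 and 0.35, while tumour-associated array 4 lies at -0.59 over the 8 chaperones.

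Averaged within each array, the role groups differed in how far the groups separated. The 8 stress response regulators averaged between -0.34 and -0.14 in inflamed arrays, relative to the mean over the 12 arrays, and between 0.01 and 0.35 in normal arrays, with no overlap. The 7 export genes lay between -0.48 and 0.03 in inflamed and between 0.14 and 0.22 in normal arrays, also with no overlap. Inflamed arrays 1 and 2 averaged -0.33 and -0.48 over the export genes, and arrays 3 and 4 averaged 0.03 and 8.0e-04. The median difference of all genes in this comparison was -0.09, or -0.03 with dim genes left out, and 15.3% of single genes did not overlap. That share holds for single genes and is no background for averages over 7 or 8 genes. The tumour-associated and the normal arrays overlapped in all 5 role groups. No test was made on these averages.

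Other probe sets of the same genes give a second look at each transcript. The 22 members with several had 41 other probe sets, of which 31 had the same sign as the one used between tumour-associated and normal skin and 10 the opposite one. Between inflamed and normal skin 29 had the same sign and 12 the opposite one, and between tumour-associated and inflamed skin 23 and 18. The second Herpud1 probe set fell by 1.37 in tumour-associated skin (limma adjusted p = 9.9e-04 over all probe sets). The second Creb3l2 probe set differed by 0.79 (adjusted p = 0.0510) and that of Ddit3 by -0.81 (adjusted p = 0.112), in the same direction as those used, and neither passed. Those of Canx differed by 0.51 (adjusted p = 0.237) and -0.58 (adjusted p = 0.582), the latter in the opposite direction. That Canx probe set was dim, with a mean of 6.64 over the arrays.

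For 2 members that had not passed, another probe set passed between tumour-associated and normal skin. A second Atf6 probe set rose by 1.12 (adjusted p = 0.0053), where the one used differed by 0.21. One of the 5 other Sec61a1 probe sets fell by 0.93 (adjusted p = 0.0308), where the one used differed by 0.34. More probe sets had the opposite sign to the one used without passing. They were those of Ssr1 (0.40 beside -0.38), Xbp1 (0.31 beside -0.25), Spcs2 (0.02 beside -0.57) and Atf4 (0.33 beside -0.52). The same held for Hspa5, Dnajc3 and a further Sec61a1 probe set. Between tumour-associated and inflamed skin, the second probe sets of Ddit3 (-1.17, adjusted p = 0.0372) and Kdelr2 (0.65, adjusted p = 0.0360) passed in the direction of the ones used. Another probe set of Atf4 passed too (0.70, adjusted p = 0.0188), where the one used differed by -0.19. Its mean over the arrays was 6.97, beside 11.21 for the one used. The remaining Atf4 probe set, with a mean of 11.08, differed by -0.51.

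**Figure D4:**
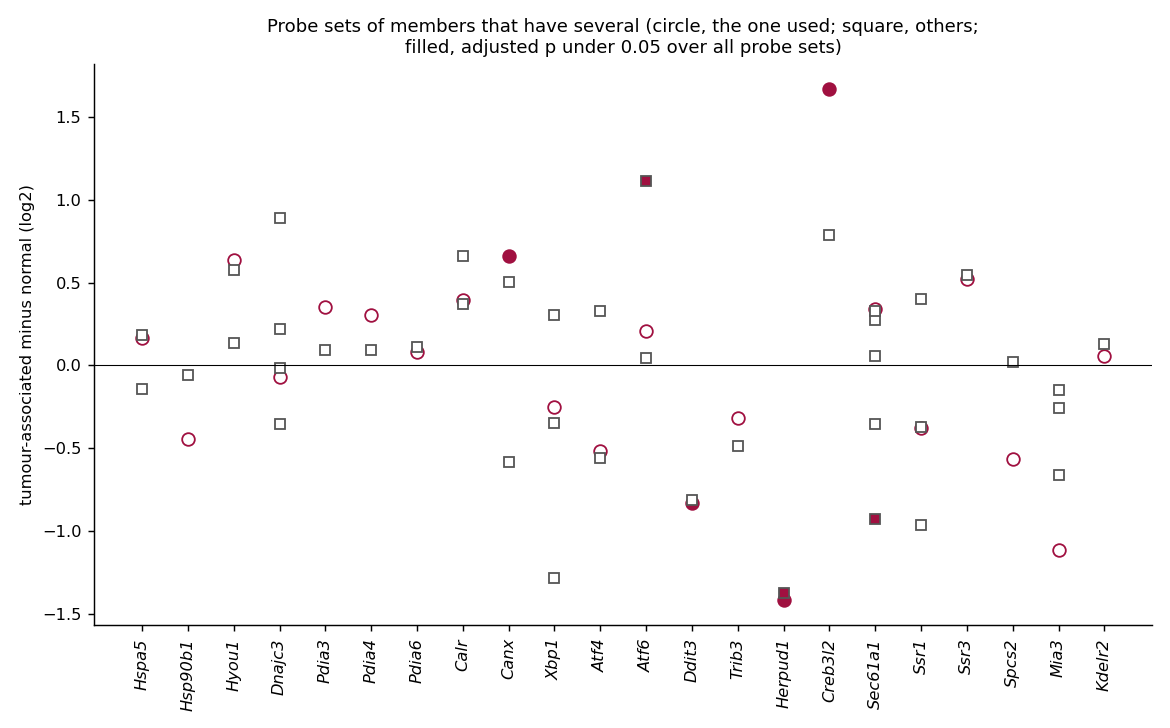
Log2 difference between tumour-associated and normal skin for every probe set of the 22 members with several; circles are the probe sets used, squares the others, and filled symbols have an adjusted p under 0.05 over all probe sets. Both Herpud1 symbols are filled and lie near -1.4, while the Canx symbols lie between -0.58 and 0.66.

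The 7 members with an ER stress response element before their start were set beside the 22 with a promoter but no such element. Between inflamed and normal skin those with the element ranged from -0.29 for Dnajc3 to 0.57 for Hspa5, with a median of 0.09, and those without from -0.86 to 1.02, with a median of -0.29. Between tumour-associated and normal skin the range with the element was -0.45 for Hsp90b1 to 0.66 for Canx, with a median of 0.17, and without it -1.42 to 1.67, with a median of -0.17. In this comparison 1 of the 7 passed (Canx) and 3 of the 22 (Creb3l2, Herpud1 and Ddit3). Herpud1, which carries the ER stress response element II, fell, and Dnajb11, which carries it too, differed by -0.20. Of the 3 genes with the unfolded protein response element, Kdelr3 differed by 0.04, Sec23a by 0.48 and Sec24d by -0.21. No test was made between these sets.

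A list of 120 other genes of the same route, 117 of them measured, was read from the same fit. Between inflamed and normal skin none passed, where 0.533% of all genes did, and 14 (12%) had an unadjusted p under 0.05, against 15.6% of all genes. Between tumour-associated and normal skin 8 rose and 3 fell, together 9.4%, where 9.63% of all genes were called. Against inflamed skin 7 rose and 1 fell, together 6.84%, where 6.71% of all genes were called. These shares are near those of all genes. Their median differences were -0.12, 0.18 and 0.28, beside -0.09, 0.04 and 0.12 over all genes. With dim genes left out, the medians over genes were -0.03, -0.02 and 0.0035. The 11 calls against normal skin became 6 without normal array 3, 7 without normal array 1 and 7 without tumour-associated array 1. The 8 against inflamed skin became 20 without inflamed array 3 and 13 without tumour-associated array 4, and 3 to 5 without inflamed array 1, 2 or 4 or tumour-associated array 1.

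Among 24 other folding enzymes 3 rose (12.5%) and 1 fell (4.17%) in tumour-associated against normal skin, where 4.85% and 4.78% of all genes did. Qsox1, a secreted sulphydryl oxidase that forms disulphides, rose by 1.61 ± 0.19 (SE, adjusted p = 2.8e-04), from a mean of 9.51 ± 0.17 (SD, n = 4) to 11.12 ± 0.39. Pdia5, another disulphide isomerase, rose by 1.28 ± 0.34 (adjusted p = 0.0359). Mogs, the glucosidase that trims the first glucose from new glycans, rose by 1.11 ± 0.29 (adjusted p = 0.0319). The fourth, Fkbp2, an ER prolyl isomerase named here although it was not among the 3 largest, fell by 1.02. Against inflamed skin Qsox1 and Pdia5 rose by 1.68 and 1.47, and Prkcsh, the beta subunit of glucosidase II, rose by 0.67 (adjusted p from 3.8e-04 to 0.0257).

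Among 18 other stress sensors and targets 1 rose (5.56%) and 2 fell (11.1%) in tumour-associated against normal skin, where 4.85% and 4.78% of all genes did. Atf3, a transcription factor induced by Atf4 and by many other stresses, fell by 2.20 ± 0.58 against normal skin (SE, adjusted p = 0.0326), from a mean of 9.13 ± 0.92 (SD, n = 4) to 6.93 ± 0.82. Against inflamed skin Atf3 fell by 3.24 ± 0.58 (adjusted p = 0.0063). Nupr1, a stress-induced chromatin protein, fell by 1.26 ± 0.21 (adjusted p = 0.0029). Asns, asparagine synthetase and a target of Atf4, went the other way and rose by 1.36 ± 0.29 against normal (adjusted p = 0.0107) and by 1.17 ± 0.29 against inflamed skin (adjusted p = 0.0313). The sensors Ern1 and Eif2ak3 differed by -0.14 and 0.51 between tumour-associated and normal skin (adjusted p = 0.776 and 0.411). Ppp1r15a (Gadd34), which reverses the translation block, differed by -0.75 (adjusted p = 0.210), and Chac1, a target of the Atf4 branch, by 0.35 (adjusted p = 0.417).

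The 17 measured genes of ER-associated degradation had no call in any of the 3 comparisons, with 1, 5 and 5 of them (5.88%, 29.4% and 29.4%) at an unadjusted p under 0.05, beside 15.6%, 22.4% and 26.5% of all genes. Of 24 other genes of translocation, signal peptidase and oligosaccharyltransferase 3 rose (12.5%) and none fell in tumour-associated against normal skin. Of all genes 4.85% rose and 4.78% fell in that comparison. Tram2, a translocon-associated membrane protein known for type I collagen synthesis, rose by 1.26 ± 0.30 (SE, adjusted p = 0.0191) and by 1.65 ± 0.30 against inflamed skin (adjusted p = 0.0065). Dad1 rose by 0.72 and Srp14, of the signal recognition particle, by 0.49. Ostc, of the oligosaccharyltransferase, rose by 0.73 against inflamed skin (adjusted p = 0.0187). Of 34 other coat, cargo and retrieval genes Gosr2, a Golgi SNARE, rose by 1.00 against normal (adjusted p = 0.0228) and Copa, a COPI coat subunit, by 0.71 against inflamed skin (adjusted p = 0.0229). Kdelr1 and Sec23b, relatives of members, differed by -0.28 and 0.56 between tumour-associated and normal skin and did not pass (adjusted p = 0.447 and 0.123).

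**Figure D5:**
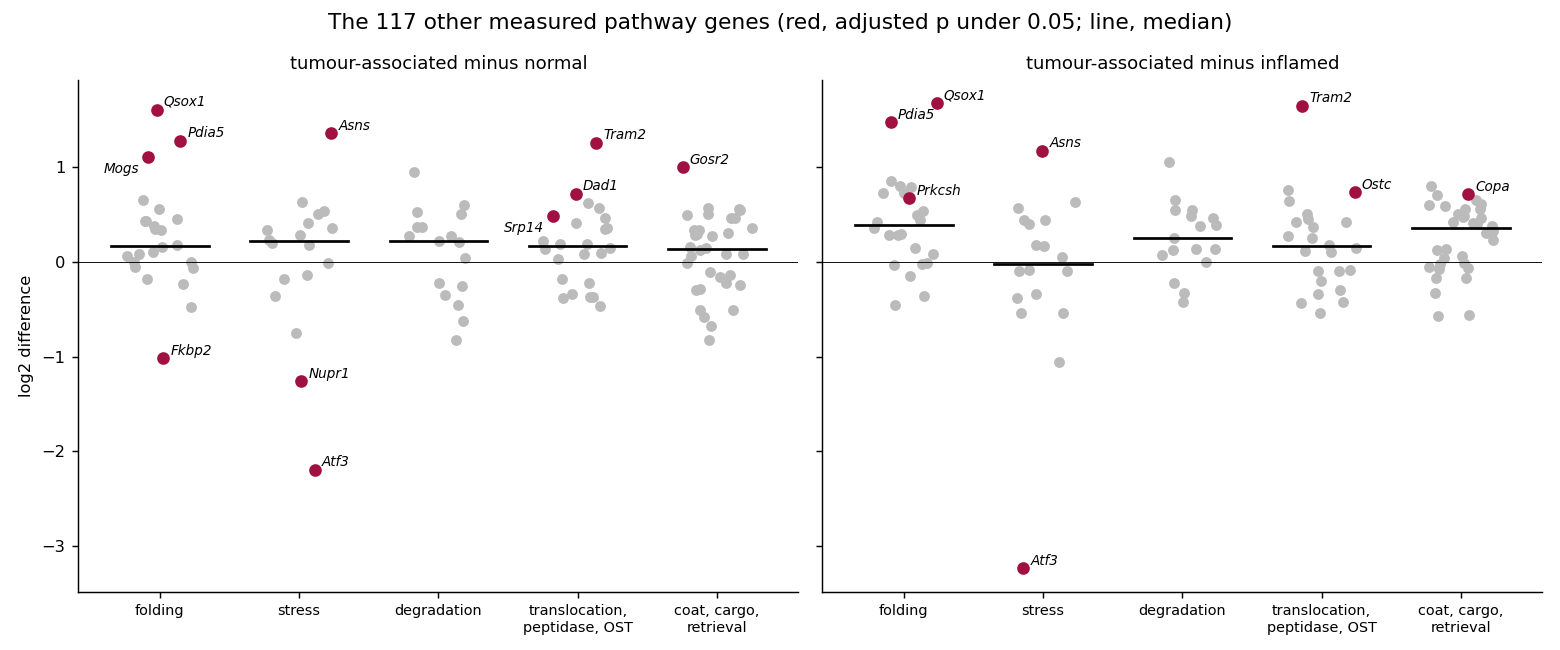
Log2 difference of each of the 117 other measured genes of the route (points; black lines are medians; red and named where the adjusted p was under 0.05) in 5 functional lists, for tumour-associated against normal and against inflamed skin. Qsox1 is the highest point in both panels (1.61 and 1.68) and Atf3 the lowest (-2.20 and -3.24), and no gene of the degradation list is red.

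Markers of other cell types moved with the groups. In bulk samples fewer cells of a type and less RNA per cell cannot be told apart. Of 11 keratinocyte markers 2 rose in inflamed (Krt15 and Perp) and 3 in tumour-associated against normal skin (Krt14, Krt6a and Dsp), and the mean over the list lay between 6.26 and 6.62 in normal, 7.55 and 8.85 in inflamed and 6.59 and 8.36 in tumour-associated arrays. Of all genes 0.258% rose and 0.275% fell in inflamed against normal skin, and 4.85% rose and 4.78% fell in tumour-associated against normal skin. Between tumour-associated and inflamed skin 3.67% of all genes rose and 3.04% fell. Of 7 plasma and B cell markers, cells with an expanded ER, Sdc1 alone rose in tumour-associated against normal skin and Mzb1 alone against inflamed skin. The list lay between 6.11 and 6.56 in all 12 arrays, and Jchain, the joining chain of secreted antibodies, had means of 3.20 in normal and 3.21 in both other groups. Of 11 macrophage and dendritic cell markers Csf1r and H2-Ab1 fell in tumour-associated against normal skin, and the list lay between 7.63 and 8.25 in normal, 7.16 and 7.79 in inflamed and 7.37 and 7.48 in tumour-associated arrays. In inflamed against normal skin none of the 11 passed, 10 differences were negative and 7 had an unadjusted p under 0.05, with a median of -0.49, beside -0.22 in tumour-associated against normal skin. Of all genes 15.6% had an unadjusted p under 0.05 and 39.4% a positive difference between inflamed and normal skin. Of 7 pericyte and smooth muscle markers Kcnj8 fell in both against normal skin, and 3 fell against inflamed skin. S100a9, 1 of 3 neutrophil markers, rose in tumour-associated skin against both. Krt15 fell against inflamed skin. The lists of T cells, mast cells, endothelium, and Schwann cells and melanocytes had no call in the 3 comparisons. The part of these markers in the differences of the 35 genes was not tested.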

How the data were processed

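RNA of sorted dermal fibroblasts was measured on 12 Affymetrix arrays in 3 groups of 4. The deposited values were log2 values per probe set, from 2.08 to 14.96; per the submitters' processing notes the authors used limma. How scanned intensities became these values is not given in the sources used here. Of 45101 probe sets 34958 had exactly 1 gene symbol in the platform annotation, and 64 were controls. Deposited quartiles differed between arrays by up to 0.284, so arrays were quantile normalized (rule: over 0.1). Per gene the probe set with the highest deposited mean was used. Background correction being unknown, the sizes of differences depend on it, and no genes were filtered.

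Group means were fitted over all 12 arrays with limma 3.58.1 (lmFit, eBayes) in R 4.3.3, two-sided, with Benjamini-Hochberg adjustment over 18194 genes and a threshold of 0.05. Control probe sets were compared by exact permutation (scipy 1.17.1). The code was tested on simulated data. No set test was run. The 35 members, the lists and the alternatives were chosen with earlier results of these data known. All members are named; of each other pathway list and comparison the 3 largest called differences are named, and always Ern1, Eif2ak3, Ppp1r15a, Chac1, Kdelr1, Sec23b, Pdgfra and Col1a1. Srpra was matched by its older symbol Srpr, and 3 other genes of the pathway lists were not analysed here. Alternatives were values as deposited, a shift by ribosomal protein genes, dim genes left out, other probe set rules, 8 arrays only, the replicate number as a block, the spike level as a covariate, trend and robust moderation, and each array left out. The number of arrays limits precision, and within-group correlations between arrays were 0.890 to 0.987.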

Additional observations from a re-analysis of the deposited data

Results flagged for a closer look

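In groups of 4 arrays, a value was marked where its gap to the nearest other value took up more of the group's range than Dixon's limit for 4 values allows. Of 117 groups of values 10 were marked, where chance marks about 1 in 20.

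Tumour-associated array 4 held 4 of them, all low: Hsp90b1 at 10.459, P4hb at 10.433, Sec24d at 9.978 and Ssr1 at 9.778. Normal array 4 held 3: Xbp1 low at 10.587, Sec61b low at 11.548 and Creb3l1 high at 12.723. Inflamed array 3 held 2, both high: Creld2 at 10.506 and Dnajb11 at 10.752. In tumour-associated array 2 Calr was low at 11.419. None of the 10 belonged to a member that passed the test.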

How the results depend on the processing

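All 5 called member differences kept their direction under the 22 alternatives. Creb3l2 (1.23 to 1.93 against normal and 1.04 to 2.22 against inflamed skin) and Herpud1 (-1.72 to -1.15) stayed called in each, and Canx and Ddit3 in 20 each. The cause of each change below was not tested.

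Member calls between tumour-associated and inflamed skin, 1 as reported, became 16 with the ribosomal protein shift, 3 with the mean of all probe sets, 2 with trend and robust moderation and 3 without normal array 4 and tumour-associated array 4 (Creb3l2, Dnajc3 and Herpud1), and were 1 to 3 with single arrays left out: 2 without normal array 4, 2 without tumour-associated array 4 and 3 without inflamed array 3. Member calls against normal skin were 4 to 6 with single arrays left out, the 6 without tumour-associated array 3 (Mia3 and Spcs2 added), and 6 with the spike covariate. For inflamed skin they were 0 throughout.

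All genes called in inflamed skin (97) became 62 as deposited, 228 with the mean of probe sets, 62 with the replicate block, 0 with the spike covariate, 219 without both arrays 4 and 0 to 251 with single arrays left out. Those called between tumour-associated and normal skin (1752) became 1089 with 8 arrays. Those between tumour-associated and inflamed skin (1221) became 6841 with the ribosomal shift, 261 with the spike covariate and 580 to 1582 with single arrays left out. In the comparisons with inflamed skin the spike covariate cannot be told apart from the group. Other pathway genes called in inflamed skin (0) became 1 with the mean of probe sets and 0 to 1 with single arrays left out. Those against normal skin (11) became 6 with 8 arrays and 6 to 13 with single arrays left out. Those against inflamed skin (8) became 63 with the ribosomal shift, 3 with the spike covariate, 21 without both arrays 4, and 3 to 20 with single arrays left out.

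Arrays with the same replicate number correlated by -0.09 to 0.18, not over 0.1 in every pair, so the numbers were not taken to pair the arrays. Between normal and tumour-associated arrays, numbers 3 and 4 correlated by 0.16 and 0.18 and each best with its own number, and spike levels stood in the same order, 0.25 to 0.65 higher in the tumour-associated array of each number. The replicate block left the member calls at 0, 4 and 1.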
